A study of Mus musculus with 12 samples.

Results

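This comparison set cultures of MC38 tumour pieces that had received an antibody against PD-1 against cultures that had received a control antibody, and the genes of the whole transcriptome are described by family. It uses 6 of the 12 samples of the series, 3 in each group, taken by the treatment in their labels. MC38 is a mouse colon carcinoma line, and the labels give the strain as C57BL/6 albino. In both groups, tumour fragments of 40 to 100 µm were kept in collagen at 2.8 mg/mL in a DAX-1 3-D culture chip (AIM Biotech) with 300 µL per well for 6 days. The aPD-1 group received clone RMP1-14 at 10 µg/mL, and the IgG group received clone 2A3 at 10 µg/mL. The other 2 groups of the series, also of 3 samples each, received the PD-1 antibody with a CD8 antibody (clone 53-6.7, 10 µg/mL, called aPD-1+CD8 here) or interferon-gamma at 100 ng/mL. RNA was read after exome capture of 250 ng of total RNA. Whether the 3 samples of each group stem from different tumours, animals or wells is not given by the labels, so the p-values below cover the variation among these samples alone, and it may be technical.

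T cells carry PD-1 as a brake on their activation, and RMP1-14 binds the mouse form of this receptor. Several of the families below are known as units of common control. ATF4, the transcription factor of the integrated stress response, drives amino acid transporters, serine synthesis enzymes and cytosolic aminoacyl-tRNA synthetases, the enzymes that load amino acids onto transfer RNAs. HIF-1 drives glycolysis, SREBP-2 drives cholesterol synthesis, and the ATF6 and XBP1 arms of the unfolded protein response drive chaperones of the endoplasmic reticulum (ER). MYC is known for driving ribosome and nucleotide synthesis.

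For aPD-1 v IgG the authors' deposited table lists 15677 genes. It gives each gene a mean normalized count over the 6 samples, a DESeq2 p-value, and the log2 fold change and its standard error (SE). It holds no value of a single sample, so whether samples of the groups overlapped is not analysed here. A gene is called changed below when its adjusted p was under 0.05. Of 12024 genes with an adjusted p, 1022 (8.5%) were higher and 1207 (10.0%) lower with aPD-1. The robust SD of the Wald scores over the tested genes was 1.69, where a standard normal has 1. After rescaling to that spread 264 of the 12024 genes were higher and 259 lower. The counts of most families shrank by over 1.5 times, so rescaled counts are given below for most groups. Rescaled counts belong beside these 264 and 259 of 12024, not beside the 8.5% and 10.0%. The median log2 fold change of the tested genes was 0.01. The mean counts summed to 11590748, of which the ribosomal RNA gene Rn45s held 27.8%. Group levels given below are computed from the deposited mean and fold change, in normalized counts. They have no error of their own, and they show a gene in both groups, not 1 gene against another. Levels were also solved from the means of the other tables with a group of the other treatments. Solved values are given below where they differ by over 1.5 times. Those tables were normalized separately and were not rescaled to one another, so solved values carry a difference in scale and are rough.

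Cell type markers were checked first. Of 6 listed epithelial markers none reached a mean count of 10, with Epcam at 0.152 and Krt8 at 2.49 in the authors' deposited table, although MC38 is a carcinoma line. Of 11 T and NK cell markers 5 are listed, none with an adjusted p, and their levels summed to 3.81 with IgG and 3.74 with aPD-1. Of 10 listed macrophage markers 6 reached a mean count of 10. Their levels summed to 230 and 215, and Cd14 alone was higher. Fibroblast markers summed to 2835 with IgG and 6717 with aPD-1, with 3 of 6 tested members higher (Pdgfra, Col1a1 and Dcn) and no member lower. These 3 carried the sum. Of the others Pdgfrb (634 with IgG and 523 with aPD-1) and Fap (39.2 and 28.2) had lower levels without passing the test. Endothelial markers summed to 33.1 and 89.1, nearly all of it Cdh5, whereas Pecam1 had a mean count of 1.18 in the authors' deposited table. Pericyte markers summed to 436 and 294, with Cspg4 lower at -0.88 ± 0.22. Itgax among the dendritic cell markers (-1.25 ± 0.41) and Krt19 among the epithelial ones (-1.07 ± 0.38) were also lower in the authors' deposited table, both at mean counts under 10. In bulk RNA more cells of a type and more RNA per cell cannot be told apart. The part of these markers in the results below was not tested.

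**Figure D1:**
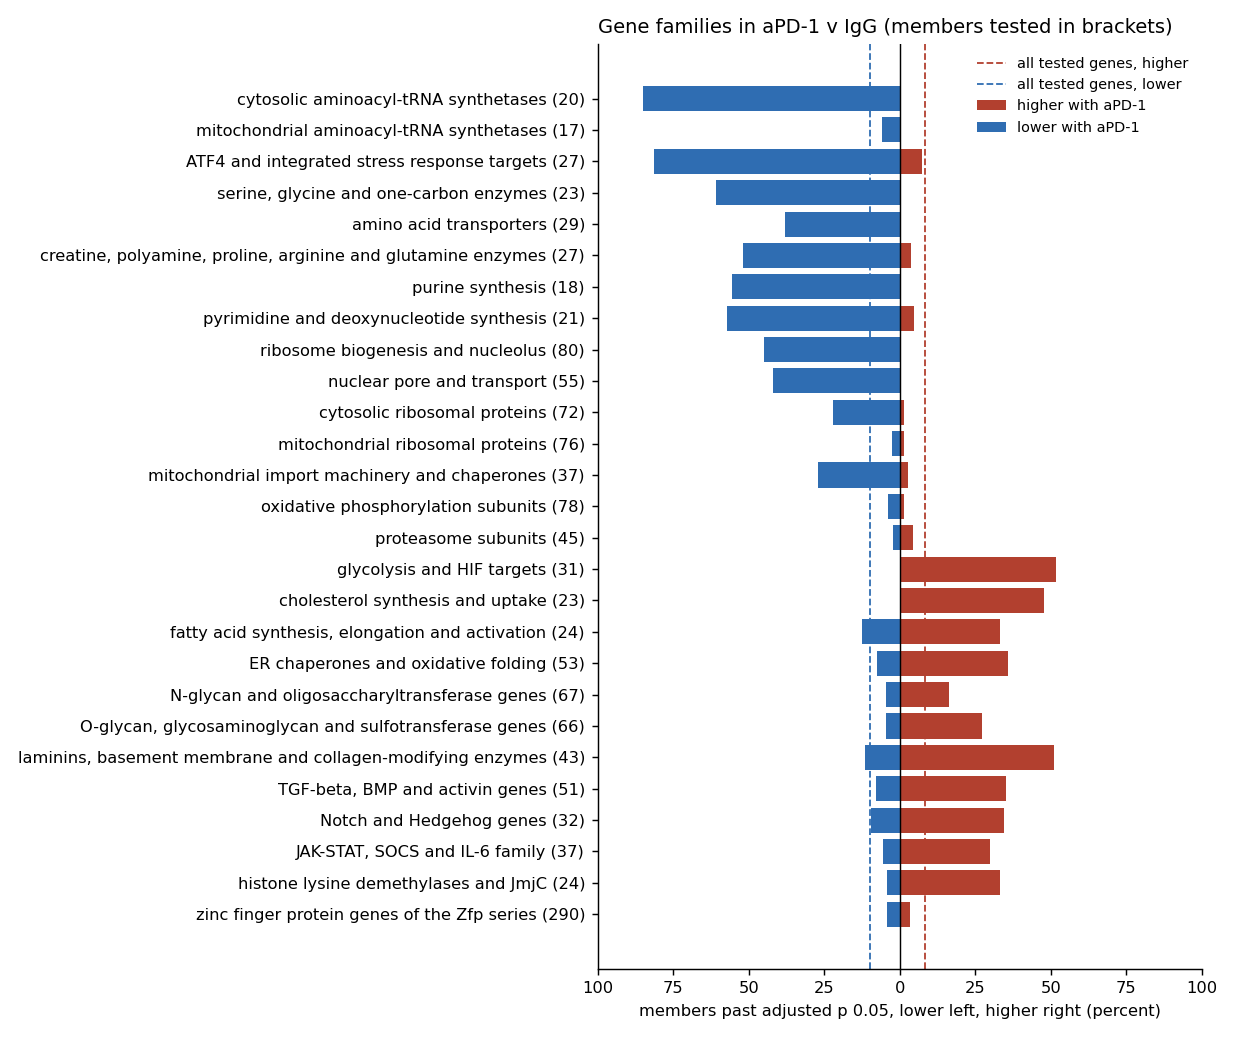
Percent of the tested members of 27 gene families that were higher (red, to the right) or lower (blue, to the left) with aPD-1 at an adjusted p under 0.05, with members tested in brackets. The dashed lines mark the shares over all tested genes, 8.5% higher and 10.0% lower. Cytosolic aminoacyl-tRNA synthetases and targets of ATF4 reach furthest to the left, and glycolysis genes and collagen-modifying enzymes furthest to the right.

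Genes that supply and load amino acids were lower with aPD-1. Of the 20 cytosolic aminoacyl-tRNA synthetases, all of them tested, 17 were lower and none higher, with a median log2 fold change of -0.97. The leucyl enzyme Lars had a level of 2809 with IgG and 1095 with aPD-1, and fell by 1.36 ± 0.13 in log2 in the authors' deposited table (DESeq2 adjusted p = 1.7e-24). Wars, for tryptophan, went from 392 to 141, a log2 change of -1.48 ± 0.19, and the glycyl enzyme Gars from 6918 to 3199.5, at -1.11 ± 0.12, per the authors' deposited table. The 3 that did not pass were Mars at -0.33 ± 0.14, Farsa at 0.04 ± 0.18 and Qars at 0.11 ± 0.15 in the authors' deposited table. Of the 17 mitochondrial synthetases, which serve translation inside that organelle, 1 was lower (Mars2) and none higher, with a median of -0.04. That share of 5.88% lies under the share of all genes.

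Amino acid transporters showed the same direction, with 11 of 29 tested members lower and none higher (median -0.47). Slc7a5, the large neutral amino acid exchanger, had a level of 6029 with IgG and 1804 with aPD-1 and fell by 1.74 ± 0.17 in log2 in the authors' deposited table (DESeq2 adjusted p = 2.1e-22). Slc7a1, which carries arginine and lysine, went from 1353 to 434, and Slc1a5, a glutamine carrier, from 335 to 135. Their log2 changes in the authors' deposited table were -1.64 ± 0.17 and -1.31 ± 0.19. The partner chain of Slc7a5, Slc3a2, fell by 0.47 ± 0.17, a smaller change, and the cystine exchanger Slc7a11, which shares that chain, did not pass at 0.28 ± 0.14 (adjusted p = 0.19) in the authors' deposited table.

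Enzymes of serine, glycine and one-carbon metabolism had 14 of 23 tested members lower and none higher (median -0.61). Phgdh, the entry enzyme of serine synthesis, went from 1166 to 378 and fell by 1.62 ± 0.18 in log2 (DESeq2 adjusted p = 1.2e-17) in the authors' deposited table. The mitochondrial folate enzymes Mthfd2 and Aldh1l2 were at -1.28 ± 0.18 and -1.32 ± 0.19 and Psat1, the next step of serine synthesis, at -1.27 ± 0.33 in the authors' deposited table. Among enzymes of proline, glutamine, creatine and polyamine metabolism 14 of 27 were lower. They included asparagine synthetase Asns, from 1563 to 634 (-1.30 ± 0.16 in the authors' deposited table), the alanine aminotransferase Gpt2 at -1.23 ± 0.16 and the proline synthesis enzyme Aldh18a1 at -1.21 ± 0.19. The 1 member that was higher was ornithine decarboxylase Odc1, the first enzyme of polyamine synthesis, from 1217 to 2856, at 1.23 ± 0.20 in the authors' deposited table (adjusted p = 1.1e-08). Azin1, which releases that enzyme from its inhibitor antizyme, was lower at -0.94 ± 0.13 in the same authors' deposited table.

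**Figure D2:**
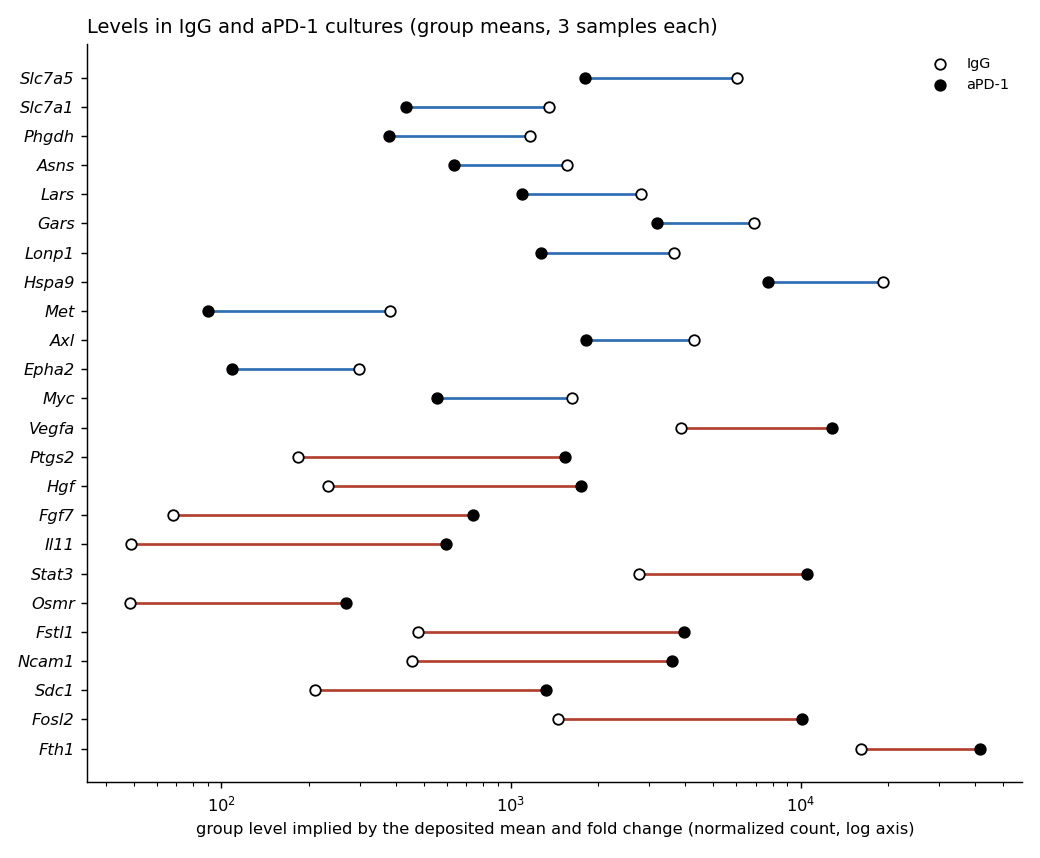
Group levels of 24 genes in IgG (open points) and aPD-1 cultures (filled points), in normalized counts on a log axis, computed from the authors' deposited mean and fold change over 3 samples a group. The 12 genes joined by blue lines were lower with aPD-1, such as Slc7a5 (6029 and 1804), and the 12 joined by red lines higher, such as Fgf7 (67.8 and 737).

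The wider list of ATF4 and integrated stress response genes, which repeats some members of the groups above such as Phgdh and Asns, had 22 of 27 tested members lower and 2 higher, with a median of -0.90. Atf4 transcript itself went from 4458 to 2443 (log2 -0.87 ± 0.14, adjusted p = 1.2e-08 in the authors' deposited table). The pseudokinase Trib3 was lower at -1.79 ± 0.25, the stress cytokine Gdf15 at -2.01 ± 0.32 and the glutathione-degrading enzyme Chac1 at -2.05 ± 0.34 in the authors' deposited table. Solved with interferon-gamma, the log2 difference of Chac1 was -2.73. The stress factors Ddit3 and Atf5 changed less, at -0.75 ± 0.22 and -0.75 ± 0.16 in the authors' deposited table. The 2 that were higher were the transcription factor Cebpb at 1.72 ± 0.15 and Ddit4, an inhibitor of mTORC1, at 1.31 ± 0.18 in the authors' deposited table. After rescaling to the wider spread of scores, 12 of the synthetases, 8 of the one-carbon enzymes, 5 of the transporters, 5 of the proline, creatine and polyamine group and 11 of the stress response list were still lower.

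Promoters of these genes were searched for the C/EBP-ATF element, the site at which ATF4 and a C/EBP partner are known to bind, as TGATGNAA on either strand. RefSeq windows of 300 bases (GRCm38.p6, 250 before to 50 after the start) were at hand for 8965 of the 12024 tested genes. The element was in 2.78% of these genes. It was in 5 of the 12 cytosolic synthetases with a window (41.7%), in none of 14 mitochondrial ones, in 9 of 25 genes of the stress response list (36%), in 3 of 21 amino acid transporters (14.3%), in 3 of 18 genes of the proline, creatine and polyamine group (16.7%) and in none of 19 one-carbon enzymes. All 5 synthetases with the element were lower (median log2 -1.04), as were 5 of the 7 without it (median -0.48). The difference was not tested. Of the 9 stress response genes with the element 8 were lower (median -1.29), and the exception was Slc7a11. Of the 16 without it 12 were lower and 2 higher (median -0.81), and this difference was not tested either. Stretches of up to 30 bases upstream of the start are given below in the direction of the gene, with the element in capitals, to show that the same element stands before genes that fell and before Slc7a11, which did not pass. On the reverse strand it reads as its reverse complement.
Asns: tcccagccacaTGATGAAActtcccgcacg
Chac1: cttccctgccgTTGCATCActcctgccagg
Pck2: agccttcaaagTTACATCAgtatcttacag
Gars: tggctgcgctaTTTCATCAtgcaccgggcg
Slc7a11: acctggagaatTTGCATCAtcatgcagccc
These lie at chr6:7693214-7693243 (Asns, minus strand), chr2:119351038-119351067 (Chac1, plus strand), chr14:55540152-55540181 (Pck2, plus strand), chr6:55037960-55037989 (Gars, plus strand) and chr3:50443642-50443671 (Slc7a11, minus strand). Their genes had log2 changes of -1.30 ± 0.16, -2.05 ± 0.34, -1.32 ± 0.16, -1.11 ± 0.12 and 0.28 ± 0.14 in this order in the authors' deposited table. A second copy of the element stands before Slc7a11. The transporter Slc7a7 also has the element upstream and did not pass, at -0.27 ± 0.24 in the authors' deposited table (DESeq2 adjusted p = 0.50). A match of these letters is a description of the sequence and does not show that a factor binds there. The stress response list was gathered as targets of ATF4 and that response, so its share with the element may follow from the choice of members.

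**Figure D3:**
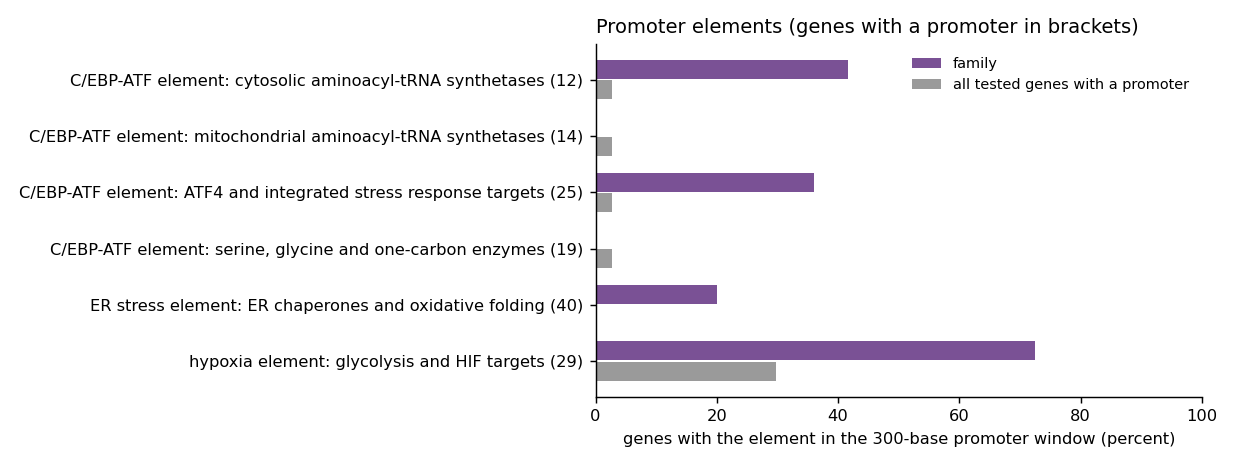
Percent of genes with each element in their 300-base promoter window, for the named family (purple) and for all 8965 tested genes with a window (grey). The C/EBP-ATF element is in 41.7% of cytosolic synthetases and 2.78% of all genes, the ER stress element in 20% of ER chaperone genes and 0.19% of all, and the hypoxia element in 72.4% of glycolysis genes and 29.7% of all.

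Genes of nucleotide and ribosome production were also lower. Purine synthesis had 10 of 18 members lower and none higher (median -0.60), among them Atic, which completes the purine ring, from 1964 to 925 (log2 -1.09 ± 0.15 in the authors' deposited table). In pyrimidine and deoxynucleotide synthesis 12 of 21 were lower, including Cad, which starts the pathway, at -0.67 ± 0.12 and the ribonucleotide reductase subunit Rrm1 at -0.67 ± 0.12, and 1 was higher, the uridine salvage kinase Uck2 at 1.14 ± 0.16, per the authors' deposited table. Of 80 ribosome biogenesis and nucleolar genes 36 were lower and none higher (median -0.48), and 76 had a fold change below 0. Nucleolin (Ncl) went from 11626 to 6600.4 (-0.82 ± 0.12 in the authors' deposited table), the snoRNP component Nop56 from 2880.0 to 1491 and the pseudouridine synthase Dkc1 from 816 to 405. Nuclear pore and transport genes had 23 of 55 lower and none higher. The member with the smallest p was Xpot, which exports transfer RNAs from the nucleus, at -1.02 ± 0.12 in the authors' deposited table (DESeq2 adjusted p = 1.8e-14).

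Changes in these families were small for most members. Of the 36 biogenesis genes 2 changed by at least 1 in log2. After rescaling to the wider spread 10 of the 80 biogenesis genes were lower, beside 259 of 12024 over all genes. So were 3 of the 18 purine and 3 of the 21 pyrimidine genes. Of the 55 nuclear transport genes 1 was lower, a share under that of all genes. Cytosolic ribosomal protein genes had 16 of 72 lower and 1 higher (median -0.23), and none passed after that rescaling. Many of them have near-identical copies elsewhere in the genome, so their values are uncertain. The broad list of bHLH, MYC-network and ID genes leaned higher, with 9 of 42 higher and 4 lower (median 0.14). These are 21.4% and 9.5%, beside 8.5% and 10.0% of all genes. Myc itself went from 1626 to 556 and fell by 1.55 ± 0.15 in log2, and its partner Max fell by 0.51 ± 0.15, in the authors' deposited table (DESeq2 adjusted p = 8.2e-24 and 0.0049). The genes of DNA repair (14 of 61 lower, 1 higher) and of the E2F and RB family (7 of 19 lower, 1 higher) leaned lower. DNA polymerase epsilon (Pole) was at -0.98 ± 0.14 and the E2F-linked factor Mybl2 at -1.01 ± 0.14 in the authors' deposited table. After rescaling 2 repair genes and 1 E2F-family gene were lower, and in the bHLH, MYC and ID list 3 were higher and 1 lower.

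**Figure D4:**
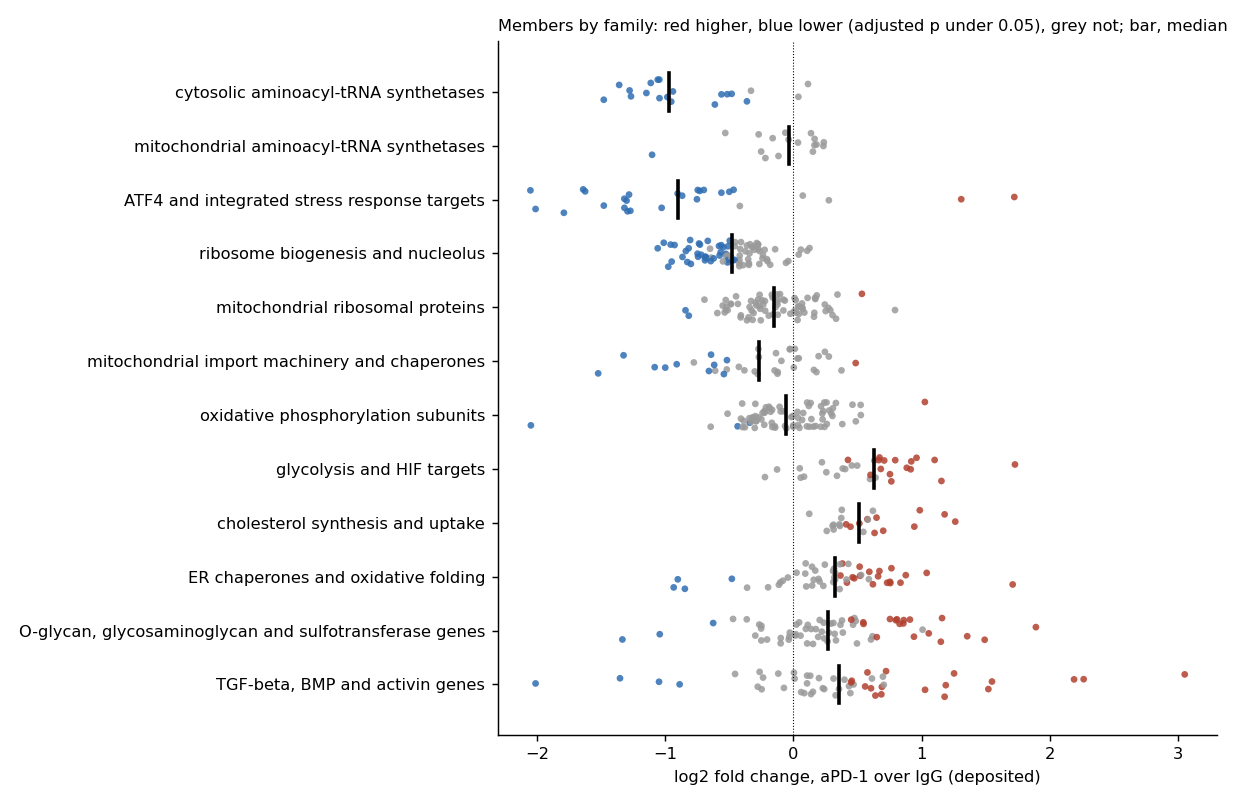
Log2 fold change of aPD-1 over IgG for each tested member of 12 families, from the authors' deposited table. Red and blue points were higher or lower at an adjusted p under 0.05, grey points did not pass, and black bars mark the medians, which run from -0.97 for cytosolic synthetases to 0.63 for glycolysis genes.

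Within mitochondria the families differed in their counts. Import machinery and chaperones had 10 of 37 members lower and 1 higher (median -0.27). The matrix protease Lonp1 went from 3660.3 to 1274 and fell by 1.52 ± 0.15 in log2 (DESeq2 adjusted p = 1.2e-22), and the chaperone Hspa9 went from 19323 to 7714 and fell by 1.32 ± 0.14, in the authors' deposited table. The chaperonin pair Hspd1 and Hspe1 was at -1.08 ± 0.16 and -0.66 ± 0.12 in the authors' deposited table. Subunits of oxidative phosphorylation had 3 of 78 lower and 1 higher (median -0.06), and mitochondrial ribosomal proteins 2 of 76 lower and 1 higher (median -0.15), both under the shares of all genes. In the tricarboxylic acid cycle list 6 of 26 were lower, led by Pck2, the mitochondrial phosphoenolpyruvate carboxykinase, at -1.32 ± 0.16, and 1 was higher, the cytosolic isocitrate dehydrogenase Idh1 at 0.97 ± 0.16, per the authors' deposited table. After rescaling 5 of the import and chaperone genes and 1 of the cycle genes were lower.

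Glycolysis genes and HIF targets were higher, with 16 of 31 tested members higher and none lower (median 0.63). Vegfa, which encodes the vascular growth factor, went from 3876 to 12836 and rose by 1.73 ± 0.15 in log2 in the authors' deposited table (DESeq2 adjusted p = 2.1e-27). The lactate transporter Slc16a1 was at 1.15 ± 0.17, the mitophagy receptor Bnip3l at 1.10 ± 0.17 and lactate dehydrogenase Ldha at 0.88 ± 0.15 in the authors' deposited table. Other genes known for a hypoxic response did not pass: Car9 was at 0.64 ± 0.34, Pdk1 at 0.38 ± 0.20, Egln3 at 0.46 ± 0.26 and Hk2 at -0.13 ± 0.17 in the authors' deposited table. Hif1a transcript rose by 0.92 ± 0.14 in the same authors' deposited table. The hypoxia element ACGTG stood in 21 of 29 glycolysis windows (72.4%) against 29.7% of all genes, and overlaps the E-box CACGTG. Of those 21 genes 12 were higher (median 0.64), and of the 8 without it 2 were (median 0.39). The list was gathered to hold HIF targets, so its share with the element may follow from the choice of members. After rescaling to the wider spread 6 of the 16 genes were higher.

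Lipid genes moved in part. Cholesterol synthesis and uptake had 11 of 23 members higher and none lower, and all 23 had a fold change above 0 (median 0.51). The synthesis enzymes Hsd17b7 and Nsdhl were at 1.26 ± 0.24 and 1.18 ± 0.20 in the authors' deposited table. The count fell to 6 at an adjusted p under 0.01 and to 3 after rescaling. Fatty acid synthesis had 8 of 24 higher, among them acetyl-CoA synthetase Acss2 at 1.25 ± 0.21 and the desaturases Scd1 and Scd2 at 0.65 ± 0.13 and 0.68 ± 0.12, and 3 lower, while fatty acid synthase Fasn did not pass at -0.03 ± 0.12, per the authors' deposited table. Glycerolipid, lipid droplet and sphingolipid genes had 5 of 51 higher and 6 lower (9.8% and 11.8%), near the 8.5% and 10.0% of all genes. Of these, lipoprotein lipase Lpl was lower at -1.65 ± 0.24 in the authors' deposited table. Soat2, which stores cholesterol as ester and is not counted in these lipid lists, was lower at -1.96 ± 0.28 in the same authors' deposited table. In the prostaglandin list 4 of 19 were higher and none lower, although the list's median was -0.20. Ptgs2, the inducible cyclooxygenase, went from 184 to 1537 and rose by 3.06 ± 0.20 (DESeq2 adjusted p = 1.1e-52), and the prostaglandin E synthase Ptges was at 0.81 ± 0.23, in the authors' deposited table. After rescaling 2 fatty acid synthesis genes and 1 prostaglandin gene were higher.

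Part of the genes of the secretory route were higher. ER chaperones and oxidative folding genes had 19 of 53 members higher and 4 lower (median 0.33). Calreticulin (Calr), which helps glycoproteins fold, went from 2608 to 5359 and rose by 1.04 ± 0.12 in log2 (DESeq2 adjusted p = 2.2e-15), and the disulfide isomerases P4hb and Pdia4 were at 0.75 ± 0.13 and 0.76 ± 0.14, in the authors' deposited table. The 4 that were lower were the ER stress sensors Atf6 (-0.93 ± 0.16) and Ern1 (-0.90 ± 0.15) and the ER degradation genes Herpud1 (-0.85 ± 0.18) and Sel1l (-0.48 ± 0.15) in the authors' deposited table. Xbp1, the factor whose transcript Ern1 splices, was higher at 0.88 ± 0.20 in the authors' deposited table. After rescaling 3 of the 19 were higher and 2 of the 4 lower.

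The ER stress element, to which ATF6 is known to bind (CCAAT, any 9 bases, then CCACG, on either strand), stood in the windows of 0.19% of genes, 17 of 8965. It stood in 8 of 40 genes of the ER chaperone list (20%), and 6 of these 8 were higher (median log2 0.52). Of the 32 without it 12 were higher and 3 lower (median 0.33), and the difference was not tested. Windows of 3 of the 6 higher genes with the element are shown, with the whole element in capitals.
Calr: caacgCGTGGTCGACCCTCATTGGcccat
Hspa5: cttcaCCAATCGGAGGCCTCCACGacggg
Hsp90b1: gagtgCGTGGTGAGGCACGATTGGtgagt
They lie at chr8:84847070-84847098 (Calr, minus strand), chr2:34772020-34772048 (Hspa5, plus strand) and chr10:86705528-86705556 (Hsp90b1, minus strand) in GRCm38.p6, and their genes were at 1.04 ± 0.12, 0.48 ± 0.13 and 0.59 ± 0.15 in the authors' deposited table. The 2 genes with the element that did not pass were Canx at 0.16 ± 0.14 and Dnajc3 at 0.31 ± 0.20 in the authors' deposited table.

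Enzymes that build O-linked sugars, glycosaminoglycans and their sulfates had 18 of 66 members higher and 3 lower (median 0.27). Csgalnact1, which starts chondroitin chains, went from 43.3 to 161 (log2 1.89 ± 0.23), the chondroitin sulfotransferase Chst11 was at 1.16 ± 0.17 and the GalNAc transferase Galnt2 at 1.36 ± 0.17 in the authors' deposited table. The 3 that were lower all act on heparan sulfate: the epimerase Glce (-1.04 ± 0.14), the sulfatase Sulf2 (-1.33 ± 0.23) and the sulfotransferase Hs6st1 (-0.63 ± 0.18) in the authors' deposited table. N-glycan genes had 11 of 67 higher and 3 lower, with the sialyltransferase St3gal1, which caps O-linked chains, at 1.95 ± 0.24 and Uap1, which makes the UDP-sugar donor, at 1.19 ± 0.14 in the authors' deposited table. Laminins, basement membrane and collagen-modifying enzymes had 22 of 43 higher and 5 lower (median 0.50). The lysyl hydroxylase Plod2 went from 693 to 2092 (1.59 ± 0.17), the procollagen protease Bmp1 from 362 to 1736 (2.26 ± 0.17) and the protease Adamts1 from 127 to 451 (1.83 ± 0.17), per the authors' deposited table. Adamtsl3 was lower at -1.80 ± 0.18 and Adamts9 at -1.16 ± 0.19 in the authors' deposited table. After rescaling 8 matrix genes were higher and 3 lower, 4 O-glycan genes higher and 2 lower, and 4 N-glycan genes higher and none lower. The summed fibroblast marker level was 2835 with IgG and 6717 with aPD-1, a sum carried by Pdgfra, Col1a1 and Dcn. Pdgfrb and Fap had lower levels with aPD-1 without passing the test. The part of fibroblasts in these matrix families was not tested.

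Cytokine and growth factor genes followed. In the JAK-STAT, SOCS and IL-6 family 11 of 37 members were higher and 2 lower. The ligand Il11 went from 48.6 to 598 (log2 3.62 ± 0.36), the receptor Osmr from 48.3 to 269 (2.48 ± 0.24) and the transcription factor Stat3 from 2774 to 10530.2 (1.92 ± 0.15, DESeq2 adjusted p = 7.1e-33) in the authors' deposited table. Il6 had a mean count of 1.32 and no adjusted p in the authors' deposited table. After rescaling 9 of the 11 were higher.

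Of the ligands for receptor tyrosine kinases outside the EGF family, 6 of 26 were higher and 5 lower. Fgf7, which acts on epithelial FGF receptors, went from 67.8 to 737 and rose by 3.44 ± 0.22 in log2 (DESeq2 adjusted p = 1.6e-53), and Hgf, the ligand of MET, went from 233 to 1743 and rose by 2.90 ± 0.18, in the authors' deposited table. Solved with aPD-1+CD8, the log2 difference of Fgf7 was 2.83 and that of Angpt1 2.67, the latter 3.07 with interferon-gamma. Fgf10 was at 1.99 ± 0.20 and the TIE2 ligand Angpt1 at 2.00 ± 0.41, while the KIT ligand Kitl went from 458 to 206 and fell by 1.15 ± 0.18, in the authors' deposited table. Receptors had 3 of 40 members of their list higher and 5 lower (7.5% and 12.5%), near the 8.5% and 10.0% of all genes. Met itself went from 382 to 90.3 and fell by 2.08 ± 0.20 (DESeq2 adjusted p = 2.4e-23), Axl was at -1.24 ± 0.12, Epha2 at -1.46 ± 0.24 and Erbb3 at -1.29 ± 0.20 in the authors' deposited table. EGF-family ligands and receptors had 4 of 11 members higher and 3 lower. Of the ligands Ereg was higher at 2.20 ± 0.33 and Nrg1 at 1.04 ± 0.17, Hbegf was lower at -1.48 ± 0.33, and Areg did not pass at 0.26 ± 0.41, per the authors' deposited table. After rescaling 4 ligand genes outside the EGF family were higher and 3 lower. Of the 40 receptors 1 was higher and 4 lower, the latter share above that of all genes under that rule (259 of 12024). Of the EGF-family genes 2 were higher and 1 lower.

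Feedback genes of the ERK pathway went both ways. Of 21 dual-specificity phosphatase, Sprouty and Spred genes 7 were lower and 3 higher. Dusp4 and Dusp5, which inactivate ERK in the nucleus, were at -1.47 ± 0.32 and -1.42 ± 0.29, while Dusp1, which also acts on p38 and JNK, was higher at 1.01 ± 0.20 and Dusp6 did not pass at 0.13 ± 0.17, per the authors' deposited table. The ETS factors Etv4 and Etv5, known ERK targets, were at -1.27 ± 0.19 and -1.07 ± 0.19, and Egr1 at -0.81 ± 0.20, in the authors' deposited table. Their list of EGR, SRF cofactor and ETS genes leaned the other way, with 6 of 30 higher, such as Etv1 at 1.58 ± 0.17 in the authors' deposited table, 4 lower and a median of 0.14. In the PI3K and inositol phosphate list 14 of 72 were lower and 2 higher, led by the lipid kinase Pik3c2b at -1.11 ± 0.17 and phospholipase Plcg2 at -0.91 ± 0.17 in the authors' deposited table. After rescaling 2 phosphatase and Sprouty genes and 2 PI3K genes were lower and none of either list higher, and 3 ETS-list genes were higher and 3 lower.

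The cAMP pathway had 8 of 51 members higher and 4 lower (15.7% and 7.8%, beside 8.5% and 10.0% of all genes). The phosphodiesterase Pde4d, which degrades cAMP, went from 96.4 to 438 (2.18 ± 0.18), and the cAMP-induced genes Crem and Sik1 were at 2.19 ± 0.28 and 1.91 ± 0.17 in the authors' deposited table. The adenylyl cyclase Adcy5, which makes cAMP, went from 41.2 to 4.93 and fell by 3.06 ± 0.39, and the regulatory subunits Prkar2a and Prkar2b of protein kinase A were lower at -1.06 ± 0.15 and -1.12 ± 0.22, in the authors' deposited table. Solved with aPD-1+CD8, the log2 difference of Adcy5 was -3.85, and with interferon-gamma -4.54. In the list of RGS and G-protein subunits 6 of 46 were higher and 4 lower. Rgs2, which shortens signals of G proteins, went from 33.8 to 235 (2.80 ± 0.27) in the authors' deposited table. The list of G-protein-coupled and purine receptors had 14 of 65 higher and 4 lower, and the ATP-gated channel P2rx3 fell by 2.71 ± 0.33 in the authors' deposited table and stood at -3.33 when solved with interferon-gamma. After rescaling 5 cAMP genes were higher and 3 lower, and 6 receptor genes were higher and 2 lower.

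In the TGF-beta, BMP and activin list 18 of 51 members were higher and 4 lower (median 0.36). The secreted BMP-binding glycoprotein Fstl1 went from 478 to 3966 and rose by 3.05 ± 0.18 in log2 (DESeq2 adjusted p = 8.2e-63), the activin subunit Inhba was at 1.55 ± 0.19 and the BMP target Id3 at 2.19 ± 0.36, with Id1 not passing at 0.47 ± 0.40, in the authors' deposited table. The BMP antagonist Grem1 was lower at -1.05 ± 0.20 and the ubiquitin ligase Smurf1 at -0.89 ± 0.14 in the authors' deposited table. Notch and Hedgehog genes had 11 of 32 higher and 3 lower. The Hedgehog targets Gli1 and Ptch1 went from 43.5 to 166 and from 814 to 2012, at 1.93 ± 0.23 and 1.31 ± 0.15 in the authors' deposited table. Of the Notch receptors, Notch2 was higher at 1.01 ± 0.13 and Notch1 lower at -0.68 ± 0.16, and the ligand Jag1 fell by 0.61 ± 0.15, per the authors' deposited table. After rescaling 7 genes of the TGF-beta list were higher and 3 lower, and 3 of the Notch and Hedgehog list higher and none lower. In the Wnt list 4 of 27 were higher and 1 lower. Wnt10a was at 1.87 ± 0.36 and the effector Lef1 at 0.99 ± 0.17, whereas the feedback gene Axin2 did not pass at 0.44 ± 0.34, in the authors' deposited table. The axon guidance list had 9 of 39 higher, among them the receptors Nrp1 at 1.67 ± 0.20 and Robo1 at 1.25 ± 0.20 in the authors' deposited table, and 3 lower. After rescaling 3 Wnt genes and 2 guidance genes were higher and none was lower.

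**Figure D5:**
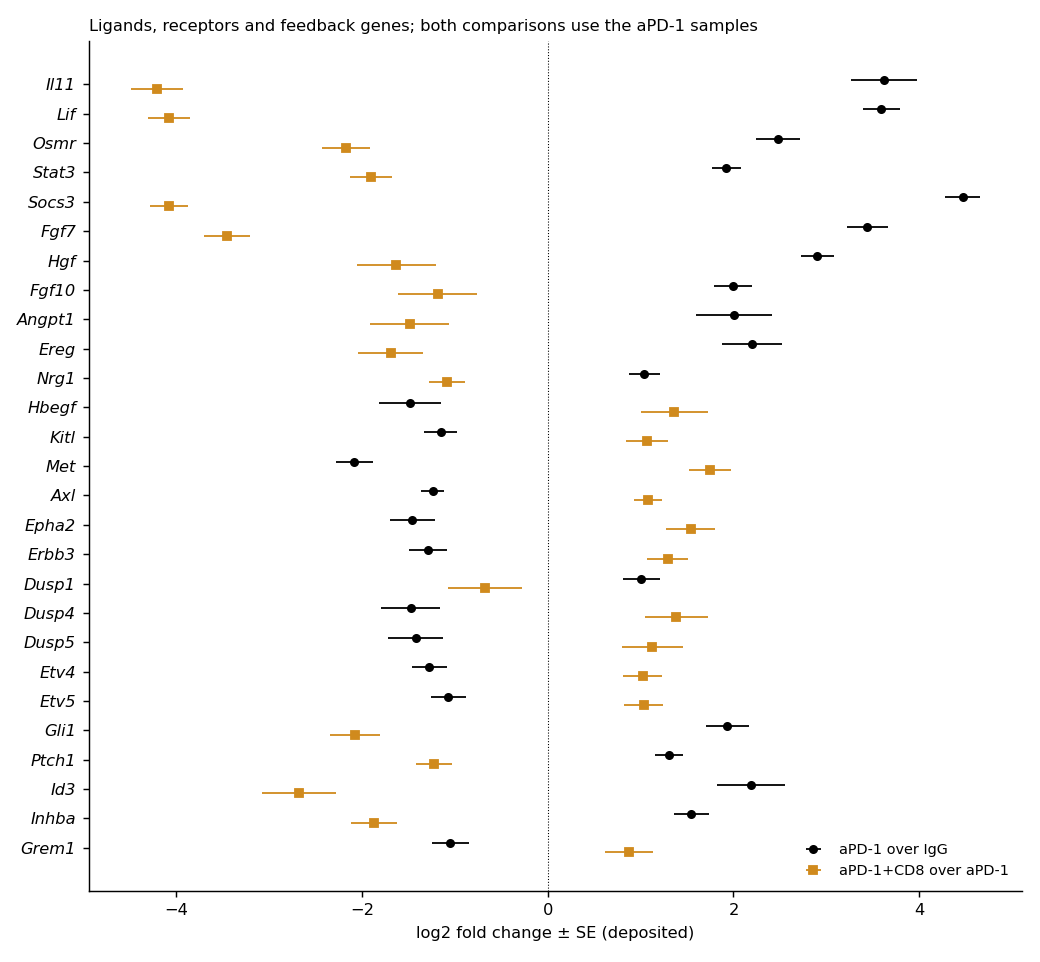
Log2 fold change ± SE of 27 ligands, receptors, transducers and feedback genes from the authors' deposited tables, for aPD-1 over IgG (black circles) and for aPD-1+CD8 over aPD-1 (orange squares). The 2 comparisons share the aPD-1 samples, so opposite signs are built into any difference that rests on those samples. Met is at -2.08 ± 0.20 and 1.75 ± 0.22, Hgf at 2.90 ± 0.18 and -1.63 ± 0.42.

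Transcription factor families changed in part. AP-1, ATF, CREB, MAF and C/EBP genes had 12 of 45 higher and 7 lower. Fosl2, a subunit of AP-1, went from 1456 to 10085 and rose by 2.79 ± 0.19 in log2 (DESeq2 adjusted p = 2.9e-45), Junb was at 2.30 ± 0.15 and Cebpd, induced by STAT3 in acute-phase responses, at 3.66 ± 0.29, while the related Fosl1 fell by 0.90 ± 0.22, in the authors' deposited table. Solved with aPD-1+CD8, the log2 difference of Cebpd was 3.08. Nuclear receptors had 7 of 29 higher, among them the orphan receptor Nr4a3 at 3.62 ± 0.30 and the vitamin D receptor Vdr at 2.07 ± 0.29, and 1 lower, the glucocorticoid receptor Nr3c1 at -0.50 ± 0.12, while Nr4a1 did not pass at 0.17 ± 0.27, per the authors' deposited table. Bhlhe40 rose by 2.06 ± 0.16 in the authors' deposited table. Forkhead, SOX, TEAD and related genes had 13 of 49 higher, with Foxc1 at 1.67 ± 0.20 and Sox5 at 1.30 ± 0.16, and 5 lower, with Sox2 from 1246 to 632 at -0.98 ± 0.15, in the authors' deposited table. Homeobox genes had 12 of 78 higher and 8 lower (15.4% and 10.3%, beside 8.5% and 10.0% of all genes). After rescaling 6 of the AP-1 and C/EBP group were higher and 2 lower, 4 nuclear receptors higher and none lower, 7 of the forkhead and SOX group higher and 1 lower, and no homeobox gene higher and 1 lower.

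Histone demethylases and JmjC genes had 8 of 24 higher and 1 lower. Jarid2, a partner of polycomb complex 2, was at 1.42 ± 0.19, and the H3K4 demethylase Kdm5b at 1.02 ± 0.15 in the authors' deposited table. The lower member was Jmjd1c at -0.54 ± 0.14 in the authors' deposited table. Histone methyltransferases and polycomb genes were 5 higher and 8 lower of 74, near or under the shares of all genes. Replication-type histones had 13 of 55 higher and none lower (median 0.33). Their genes are near-identical copies, so how the authors' counting split the reads makes them uncertain. After rescaling 2 of the demethylase genes and none of the histones were higher. The large Zfp series of zinc finger genes had 10 of 290 higher and 12 lower (3.45% and 4.14%), under the shares of all genes.

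Surface, cytoskeletal and defence genes had members moving both ways. Integrins, cell adhesion molecules and tetraspanins had 12 of 56 higher and 5 lower. The neural adhesion molecule Ncam1 went from 456 to 3588 (2.98 ± 0.17) and the heparan sulfate proteoglycan Sdc1 from 211 to 1323 (2.65 ± 0.15), while the laminin receptor subunit Itga6 fell by 1.86 ± 0.26, in the authors' deposited table. Of 124 kinesin, dynein, tubulin and centrosome genes 7 were higher and 7 lower, under the shares of all genes. Of 100 actin, myosin and sarcomere genes 11 were higher and 13 lower, near the 8.5% and 10.0% of all genes. Of the first list the tubulins Tuba1a and Tubb2a were at 1.63 ± 0.15 and 1.76 ± 0.15 in the authors' deposited table, and both have near-identical relatives that could share reads. Protease inhibitors had 5 of 17 higher and 1 lower, with the secreted inhibitor Slpi from 20.9 to 312 (3.90 ± 0.28) and Timp1 at 2.48 ± 0.22 in the authors' deposited table. The log2 difference of Slpi solved with aPD-1+CD8 was 3.17. Complement and coagulation genes had 7 of 28 higher and 1 lower. The central complement component C3 went from 108 to 629 (2.55 ± 0.18) in the authors' deposited table. BCL2-family, caspase and IAP genes had 6 of 37 higher and none lower, with Birc3 at 1.71 ± 0.26 and Birc2 at 1.49 ± 0.25 and the anti-apoptotic Mcl1 not passing at 0.34 ± 0.15, per the authors' deposited table. After rescaling 4 adhesion genes were higher and 2 lower, 4 kinesin and tubulin-list genes higher and 2 lower, 3 actin-list genes higher and 3 lower, 3 protease inhibitors higher and 1 lower, and 2 complement genes higher and 1 lower. Of the BCL2, caspase and IAP genes 2 were higher and none lower.

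Redox and metal genes were mixed. Metallothioneins and zinc or copper transporters had 5 of 30 higher and 2 lower, and iron and heme genes 2 of 30 higher and 2 lower, the latter under the shares of all genes. NRF2 and glutathione genes had 5 of 43 higher and 5 lower (11.6% each), near the 8.5% and 10.0% of all genes. The mitochondrial superoxide dismutase Sod2 rose by 2.06 ± 0.15 in the authors' deposited table, and the glutathione synthesis subunits Gclc and Gclm were lower at -0.58 ± 0.16 and -0.46 ± 0.15. The zinc and iron importer Slc39a14 went from 219.8 to 869 (1.98 ± 0.16), and the iron store subunit Fth1 from 16104 to 41604 (1.37 ± 0.15), whereas the transferrin receptor Tfrc did not pass at 0.21 ± 0.17, in the authors' deposited table. Lysosomal genes had 8 of 69 lower (11.6%), near the share of all genes, and 1 higher (1.45%), under it. Of the 8, 6 were parts of the proton pump, such as Atp6ap2 at -0.74 ± 0.15, as was the 1 that was higher, and the cathepsins Ctsb and Ctsl did not pass at -0.05 ± 0.20 and 0.12 ± 0.20, per the authors' deposited table. After rescaling 1 gene of the NRF2 list was higher and none lower, 2 zinc or copper genes and 1 iron gene were higher and none lower, and none of the lysosomal genes passed. Proteasome subunits had 2 of 45 higher and 1 lower, under the shares of all genes.

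The authors' deposited table of aPD-1+CD8 v aPD-1 gave 904 of 11560 tested genes higher (7.82%) and 802 lower (6.94%). It shares the 3 aPD-1 samples with the comparison above, so the directions in both depend on the same libraries. Of 20 cytosolic synthetases 16 were higher and none lower with the CD8 antibody added, of 27 stress response genes 22 and 2, and of 80 ribosome biogenesis genes 31 and none. Glycolysis genes had none of 31 higher and 12 lower, and the JAK-STAT list none of 34 higher and 11 lower. For Slc7a5 the authors' deposited tables gave -1.74 ± 0.17 for aPD-1 over IgG and 1.91 ± 0.20 for aPD-1+CD8 over aPD-1, and for Vegfa 1.73 ± 0.15 and -1.81 ± 0.18. The authors' deposited table of aPD-1+CD8 v IgG had 0 changed genes of 15304 by DESeq2, with 57 at an unadjusted p under 0.05, and no other tool could be run on it. Its largest absolute log2 value was 0.353, so its fold changes appear shrunken far more strongly and are not set beside the others.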

How the data were processed

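RNA-seq libraries made by exome capture from 6 cultures, 3 with aPD-1 and 3 with IgG, were grouped by the treatment in their labels. The authors deposited the result of a DESeq2 comparison for each pair of groups, per the file headers, and mm9 is the build in the submitters' processing notes. An aligner, an annotation, a strand setting and a DESeq2 version were not given in the sources used here. The deposited mean, per the file headers, is an average normalized signal, in counts, over the samples of a table. The deposited fold changes and their errors are log2 values, which appear shrunken toward 0. The deposited Wald score and the deposited p-values, unadjusted and adjusted by the Benjamini-Hochberg method, were used as given. Recomputing the p-values from the fold change over its SE gave the deposited ones. So did recomputing the adjusted p-values from the deposited unadjusted ones. The tables hold no counts per sample, so no count model could be run and the depth of each library is unknown. The sum of the mean counts over genes, 11590748, stands in its place, and the median SE of a log2 fold change at a mean count of at least 100 was 0.165.

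Genes were grouped into 97 lists of families and pathways, by symbol. The members and lists were chosen with earlier results of these data known. A list that names genes held 717 entries in sum over such lists, of which 19 are not in the table. In each list up to 5 changed members in each direction by smallest p were eligible to be named, with set members whatever their value. Over all genes the 20 highest and 20 lowest fold changes at a mean count of at least 50 and the 15 smallest p in each direction were eligible too. The text names a part of the 745 eligible genes. Farsa, Mars, Qars, Chac1, Hsp90b1, Canx and Dnajc3 lie outside this rule and were chosen after their values were seen. Slc7a7 was also added after its value was seen. Promoter windows came from RefSeq (GRCm38.p6), matched by symbol, for 8965 genes with 11476 windows. Their coordinates are not those of the authors' build, and no coordinate of the authors' files was used. Python 3.11.15, pandas 2.3.3, NumPy 2.4.6, SciPy 1.17.1 and matplotlib 3.10.9 were used, and the call and adjustment steps were tested on simulated data. Alternatives were a stricter adjusted p, a minimum fold change, other filters on the mean, rescaled scores, centring on the median gene, and group levels solved from a second table.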

Additional observations from a re-analysis of the deposited data

How the results depend on the processing

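Requiring an absolute log2 fold change of at least 1 left 707 changed genes, 379 higher and 328 lower. Rescaling the Wald scores to their own median and robust SD left 523, 264 higher and 259 lower. An adjusted p under 0.01, 3 other filters on the mean count (none, 10, 100) and centring on the median gene kept the total and each direction within 1.5 times. Of 197 counts over the table and its lists, 156 moved by more under the rescaled scores, 139 under the minimum fold change, 65 under the stricter p, 54 with a mean count of at least 100, 6 with at least 10, 4 with no filter and 2 under centring. Of 745 genes eligible to be named, centring took 6 past the threshold and reversed none, and none of the 6 is named in the text. Group levels solved with aPD-1+CD8 moved 118 eligible genes by more than 1 SE and those solved with interferon-gamma 93. Solved and deposited values were compared for the 43 genes with a log2 fold change over 2 and a mean count of at least 100. The solved minus the deposited value had a median of -0.36 with aPD-1+CD8 and -0.12 with interferon-gamma. All 6155 tested genes with such a mean had a median shift of -0.06 in both. The means were combined without rescaling between tables, so these shifts do not show that the deposited values are too large. The part of the scale in them was not tested. The tables were normalized separately, and the aPD-1 levels of 1767 genes in the aPD-1+CD8 v aPD-1 table stood at a median of 0.875 times those in the aPD-1 v IgG table. No paired analysis was possible because the tables hold no column of a single sample, and for the same reason no fit without 1 replicate was run. Depth per library is unknown, and genes with low means had no adjusted p in 3648 cases.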

Other observations

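Enzymes of retinoid and steroid metabolism included members with low levels and large changes. Hsd11b1, which regenerates active glucocorticoid, went from 4.66 to 41.6 (log2 3.16 ± 0.39) and Cyp26b1, which clears retinoic acid, from 6.12 to 30.2 (2.30 ± 0.39) in the authors' deposited table. Adh7, an alcohol dehydrogenase that oxidizes retinol, fell by 1.98 ± 0.31 in the authors' deposited table. Over the list of aldehyde dehydrogenases and cytochromes P450, 6 of 57 were higher and 4 lower (10.5% and 7.02%). These lie near or under the 8.5% and 10.0% of all genes. After rescaling 4 of the 57 were higher and 4 lower, shares above those of all genes under that rule (264 and 259 of 12024).

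Among calcium and junction genes, the kinase subunit Camk2d went from 2792 to 936 (-1.58 ± 0.15) and the gap junction protein Gja1 from 731 to 1735 (1.25 ± 0.14) in the authors' deposited table. Per1, a clock gene, rose by 0.78 ± 0.16 in the authors' deposited table, and 5 of 22 clock genes were higher and 1 lower, and after rescaling 1 was higher. The kinase Rps6ka2, which acts below ERK, fell by 1.80 ± 0.17 in the authors' deposited table. The matrix gene Fbn1 (fibrillin) went from 2688 to 11742 (2.13 ± 0.13) and Emilin1 from 138 to 896 (2.70 ± 0.16) in the authors' deposited table.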
